A study of Equus caballus with 8 samples.

Results

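The genes described here are 9 that build the junctions between epithelial cells: the claudins CLDN1, CLDN3, CLDN4, CLDN7, CLDN8 and CLDN10, occludin (OCLN), the scaffold protein ZO-1 (TJP1) and E-cadherin (CDH1). They were chosen by function, as the listed epithelial claudins, occludin, ZO protein and E-cadherin whose symbols match a horse NCBI Gene ID, and all 9 of 9 were found among the 24942 IDs of the count table. The data are messenger RNA counts from endometrial biopsies of 4 Bavarian Warmblood mares, each biopsied when 12 days pregnant and also on Day 12 of an oestrous cycle, with the order of the states set at random. The pregnant group holds 4 biopsies taken after an embryonic vesicle had been seen by ultrasound and flushed out, and the cyclic group holds 4 biopsies of the same mares without pregnancy. Ovulation was induced with human chorionic gonadotropin in these mares and the uterus was flushed before the biopsy, so these steps are shared by the groups. No source used here gives the ages of the mares, and all mares came from a single stud and were inseminated from a single stallion. The labels do not say whether insemination also took place in the cycles of the control biopsies, and if it did not, exposure to semen cannot be told apart from pregnancy. Each biopsy is whole tissue, in which fewer cells of a type and less RNA per cell cannot be told apart.

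Tight junctions close the space between neighbouring epithelial cells near their apical side. Claudins span the membrane of each cell and pair across the gap; some of them seal it, and others form pores that let selected ions through. Occludin lies beside them in the membrane, ZO-1 ties them to actin from inside, and E-cadherin holds the cells together just below, in the adherens junction. In the uterus these junctions separate the luminal fluid that surrounds the conceptus from the maternal tissue, and in the mare the conceptus is still mobile in the lumen at this time.

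Total counts ran from 9.81 M in the pregnant library of mare 1 to 16.7 M in the pregnant library of mare 3, with 15.5 M or more in every library but the shallowest. Levels are in CPM, counts relative to library size, after TMM scaling (trimmed mean of M values), and they are not corrected for transcript length, so levels of different genes are not ranked against each other, and sums over a gene list are compared only between libraries. The tissue label was checked on marker genes. The epithelial marker EPCAM had 538 ± 21.9 CPM in the cyclic libraries and 508 ± 43.7 CPM in the pregnant ones (mean ± SD, n = 4, as for all levels below), and the stromal collagen gene COL1A1 had 1484 ± 493 and 1283 ± 71.8 CPM. The 9 genes listed for the conceptus summed to 10.4 to 17.3 CPM in the cyclic and 14.6 to 23.4 CPM in the pregnant libraries, higher in pregnancy in 4 of 4 mares. Of these, CDX2, HAND1 and AFP had 0 counts in all 8 libraries and NANOG had at most 1 count in any. Of the 5 that could be tested, 1 was called (20.0%, beside 16.7% of all genes). This was TFAP2C, which rose from 1.37 ± 0.303 to 2.79 ± 0.356 CPM. POU5F1 (5.09 ± 1.27 and 7.01 ± 2.50 CPM), ELF5 (2.92 ± 1.09 and 4.66 ± 2.41 CPM) and EOMES (2.87 ± 1.23 and 4.17 ± 1.2 CPM) had higher means in pregnancy and did not pass, with adjusted p of 0.0918, 0.244 and 0.162. GATA3, also with a higher mean in pregnancy, did not pass either (adjusted p = 0.612). The part of these transcripts in the values of the junction genes was not tested.

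The comparison of pregnancy with the cycle asked which of these junction transcripts differ when a conceptus is present. None of the 9 passed the test, so 0 rose and 0 fell at an adjusted p below 0.05 (edgeR quasi-likelihood test with the mare as a block), and 0 of 9 had an unadjusted p below 0.05. Of all 15342 genes tested, 16.7% were called, 8.53% higher and 8.19% lower in pregnancy, and 30.7% had an unadjusted p below 0.05. At a share of 16.7%, fewer than 2 of 9 genes would be called. DESeq2 and limma-voom, also with the mare as a block, called 0 of 9 as well. For each of the 9 the values of the pregnant and cyclic libraries overlapped, against 10.7% of all genes whose groups did not. The median log2 fold change of the 9 was -0.09, beside 0.00 over all genes tested, and their median absolute log2 fold change was 0.17, the same as over all genes tested (0.17). With library totals in place of TMM the split of calls over all genes moved from 1309 higher and 1256 lower to 1416 higher and 864 lower, and still 0 of the 9 were called.

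**Figure D1:**
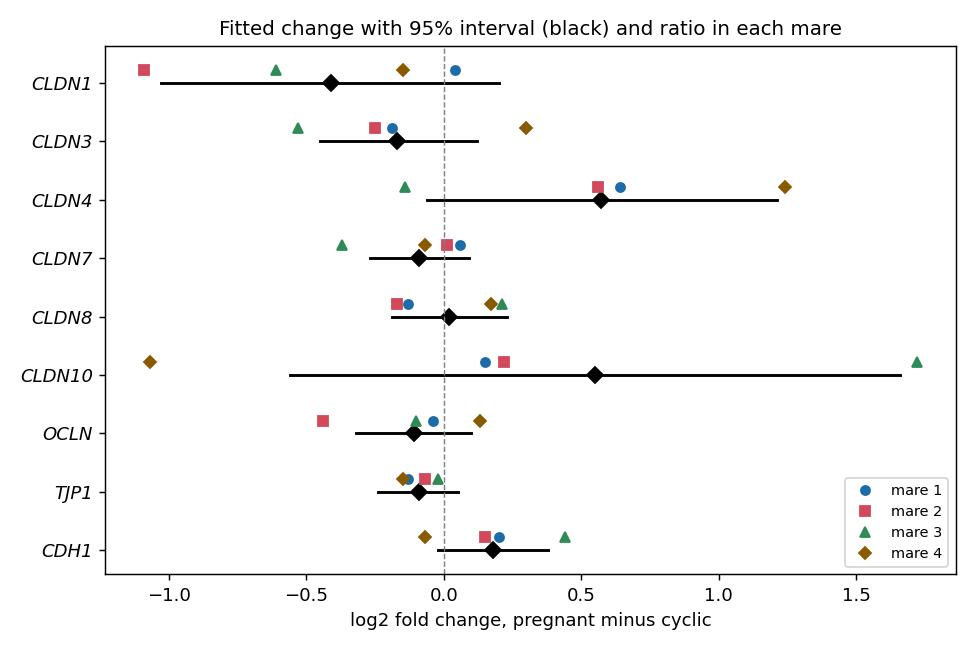
Log2 fold change (pregnant minus cyclic) of each gene on the x axis, with the fitted value as a black diamond, its 95% interval as a black line, and the log2 ratio of TMM-scaled CPM in each of the 4 mares as coloured symbols above it. Each interval includes 0. Those of TJP1, CLDN7, CDH1, CLDN8 and OCLN are narrow, and those of CLDN10, CLDN4 and CLDN1 are wide.

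The width of the intervals says what size of change the libraries leave possible. For TJP1 the 95% interval of the fold ran from 0.848 to 1.04, for CLDN7 from 0.828 to 1.07, for OCLN from 0.800 to 1.07 and for CLDN8 from 0.879 to 1.17. Changes in single mares can lie beyond these intervals. The log2 ratio of OCLN was -0.44 in mare 2, where the interval began at -0.32. That of CLDN7 was -0.37 in mare 3, where it began at -0.27. For CDH1 the interval ran from 0.988 to 1.30 and for CLDN3 from 0.731 to 1.08. It was widest for CLDN10 (0.681 to 3.17), CLDN4 (0.958 to 2.31) and CLDN1 (0.490 to 1.15), each of which includes changes of over 1.5-fold.

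CLDN4 (Gene ID 100059948), a claudin that tightens epithelia and serves as a receptor for Clostridium perfringens enterotoxin, had the largest fitted log2 fold change of the 9. Its cyclic levels were 91.6, 122, 109 and 67.1 CPM in mares 1 to 4, and its pregnant levels 143, 179, 98.8 and 158 CPM. CLDN4 was therefore higher in pregnancy in 3 of 4 mares and slightly lower in mare 3, and the groups overlapped. The means were 97.4 ± 23.6 CPM in the cyclic libraries and 145 ± 34.0 CPM in the pregnant ones. The log2 fold change was 0.57 ± 0.24 (SE; adjusted p = 0.195), which does not pass. The log2 ratio of CLDN4 was 0.64, 0.56, -0.14 and 1.24 in mares 1 to 4, so mare 4, whose cyclic level was the lowest, moved most. Without mare 3 the log2 fold change of CLDN4 was 0.80 and passed (adjusted p = 0.0155, beside 0.0155 to 0.426 over 14 alternatives), so the call depends on whether mare 3 is included. It passed in 1 of the 14 alternatives.

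CLDN3 (100059922), the other claudin named as an enterotoxin receptor, had cyclic levels of 243, 316, 302 and 179 CPM in mares 1 to 4 and pregnant levels of 213, 266, 209 and 221 CPM. It was lower in pregnancy in mares 1 to 3 and higher in mare 4, and the pregnant libraries lay within the cyclic range. The log2 fold change was -0.17 ± 0.12 (adjusted p = 0.405). CLDN3 and CLDN4 are direct neighbours in the RefSeq gene table, and both are short, similar genes whose reads an unstated counting method may have divided, so their levels carry that uncertainty. Within each state they ranked the mares alike: mare 2 was highest for both genes in the cycle and in pregnancy, and the lowest was mare 4 in the cycle and mare 3 in pregnancy, for both. The ranking was noticed in the values and was not tested.

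CLDN1 (100059811), a sealing claudin known for the water barrier of mammalian skin, was close to the lower limit of what these libraries resolve, with 11 to 36 counts per library. It had 1.35, 1.51, 1.12 and 2.23 CPM in the cyclic libraries and 1.39, 0.709, 0.731 and 2.01 CPM in the pregnant ones, in mares 1 to 4. The fitted log2 fold change was -0.41 ± 0.27 (adjusted p = 0.347), with lower levels in pregnancy in 3 of 4 mares and a level nearly as before in mare 1. Mare 4 was highest in both states.

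**Figure D2:**
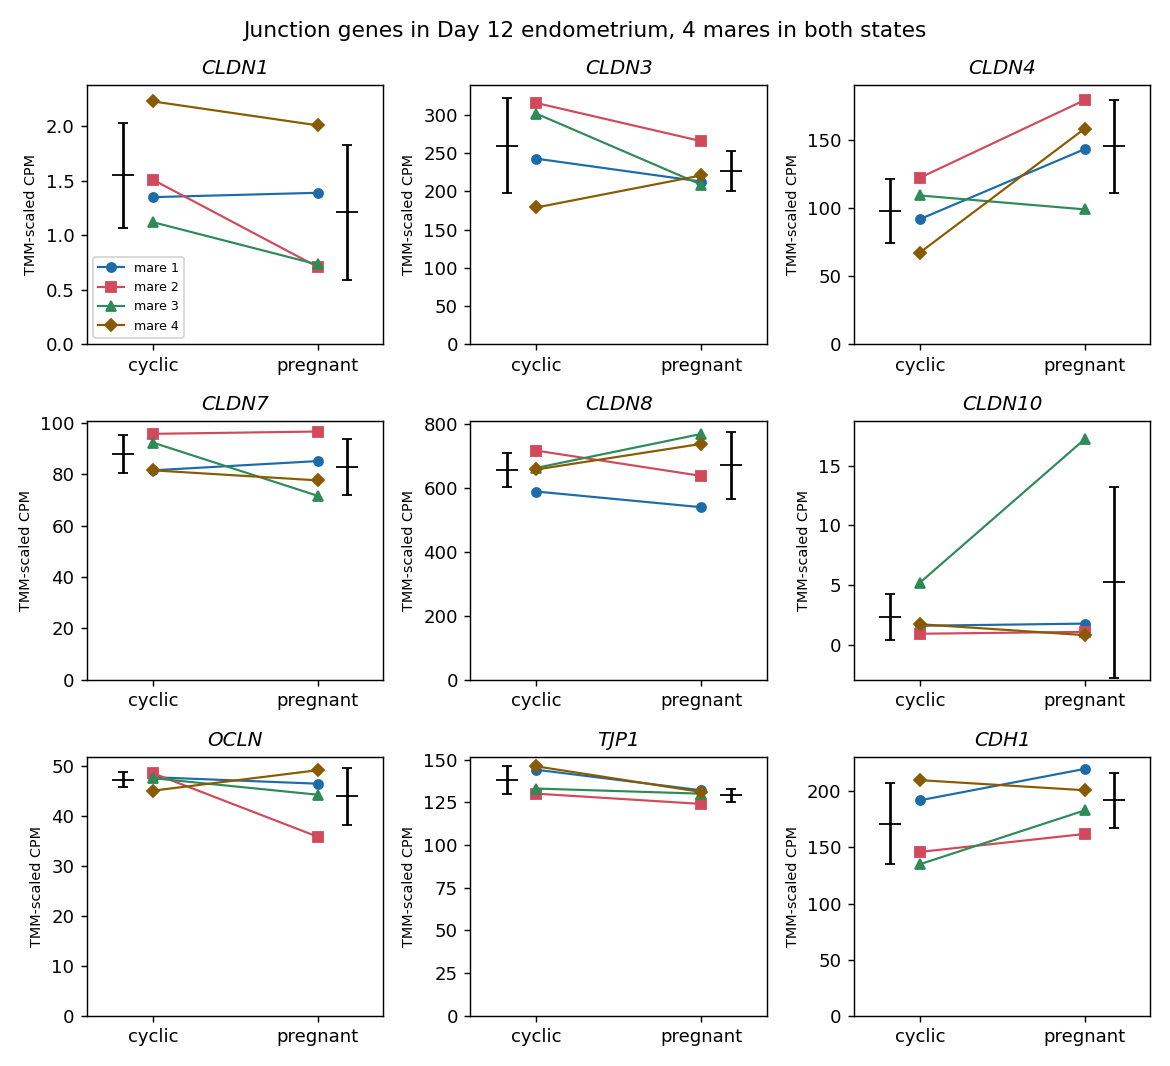
TMM-scaled CPM (y axis) of the 9 genes in the cyclic and the pregnant state (x axis); lines join the libraries of a mare, and black bars give the mean and SD of 4 mares. CLDN4 goes up in 3 of 4 mares, and CLDN10 is high in mare 3 in both states (5.21 and 17.2 CPM). TJP1 stays within 124 to 146 CPM, while OCLN spans 35.8 to 49.1, CLDN7 71.6 to 96.6 and CLDN8 540 to 769 CPM.

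CLDN7 (100072960), a claudin that also sits on the lateral membrane and binds EPCAM, had 81.5, 95.7, 92.3 and 81.5 CPM in the cyclic libraries and 85.1, 96.6, 71.6 and 77.6 CPM in the pregnant ones. Mares 1 and 2 were slightly higher and mares 3 and 4 lower in pregnancy, and the log2 fold change was -0.09 ± 0.08 (adjusted p = 0.495). CLDN8 (100053505), which in the mouse kidney recruits CLDN4 to the junctions of the collecting duct, had 589, 717, 663 and 658 CPM in the cyclic libraries and 540, 638, 769 and 738 CPM in the pregnant ones. It was lower in mares 1 and 2 and higher in mares 3 and 4, and its log2 fold change was 0.02 ± 0.09 (adjusted p = 0.907). Its direction turned, at values still near 0, when mare 3 (-0.05) or mare 4 (-0.03) was left out. Its neighbour in the gene table, CLDN17, had 0 counts in all 8 libraries.

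CLDN10 (100050509), a claudin whose isoforms form pores for cations or for anions, was high in a single mare in both states. Mares 1, 2 and 4 had 1.61, 0.943 and 1.74 CPM in the cyclic libraries and 1.79, 1.10 and 0.83 CPM in the pregnant ones, on 14 to 28 counts per library. Mare 3 had 5.21 CPM in the cyclic libraries and 17.2 CPM in the pregnant ones, on 84 and 306 counts. The group means of 2.38 ± 1.92 and 5.23 ± 8.0 CPM therefore describe no typical animal. The log2 fold change was 0.55 ± 0.46 (adjusted p = 0.475), and it was -0.25 without mare 3 (adjusted p = 0.697) and 1.16 without the mare block (adjusted p = 0.634), with adjusted p of 0.114 to 0.735 over its 14 alternatives. The counts are per gene, so the isoforms cannot be told apart.

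Occludin, a membrane protein found throughout epithelial tight junctions, had the smallest SD relative to its mean of the 9 genes in the cyclic group. OCLN (100073306) had 47.7, 48.5, 47.5 and 45.0 CPM in the cyclic libraries and 46.4, 35.8, 44.2 and 49.1 CPM in the pregnant ones. The pregnant library of mare 2 was the lowest, and the other pregnant libraries lay between 44.2 and 49.1 CPM. The log2 fold change was -0.11 ± 0.09 (adjusted p = 0.460). TJP1 (100050412), the scaffold ZO-1 that binds claudin tails and actin, had 144, 130, 133 and 146 CPM in the cyclic libraries and 132, 124, 130 and 131 CPM in the pregnant ones. It was lower in pregnancy in 4 of 4 mares, by log2 ratios of -0.13, -0.07, -0.02 and -0.15, and the log2 fold change of TJP1 was -0.09 ± 0.06 (adjusted p = 0.359).

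E-cadherin, the calcium-dependent adhesion molecule of epithelia, leaned the other way. CDH1 (100066844) had 192, 146, 135 and 210 CPM in the cyclic libraries and 220, 162, 183 and 201 CPM in the pregnant ones. It was higher in pregnancy in mares 1 to 3, most in mare 3 with a log2 ratio of 0.44, and slightly lower in mare 4 with -0.07. The means were 171 ± 36.1 and 192 ± 24.7 CPM and the log2 fold change was 0.18 ± 0.09 (adjusted p = 0.199).

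Some epithelial markers changed, and they are given here because the 9 genes mark epithelia. Of 13 epithelial markers tested, 1 rose (EHF) and 4 fell (KRT7, KRT18, ESRP2 and PROM1), 38.5% beside 16.7% of all genes called. The summed level of the list was 1788 to 2171 CPM in the cyclic libraries and 1596 to 1854 CPM in the pregnant ones, lower in 4 of 4 mares. The ratio of the summed CPM of the 9 genes to that sum, which has meaning only between libraries, was 0.726 to 0.827 in the cyclic and 0.811 to 0.950 in the pregnant libraries. The most abundant genes weigh most in it. CLDN8 alone had 540 to 769 CPM of the 1382 to 1579 CPM of the 9. Among the markers, mean KRT18 went from 463 to 372 CPM and mean KRT7 from 235 to 154 CPM. When the libraries were scaled to the summed epithelial markers in place of TMM, the median log2 fold change of all genes tested moved to 0.18. Under this scaling 4256 of 15342 genes were called, 3665 higher and 591 lower, against 2565 with TMM. On that scale CDH1 had a log2 fold change of 0.35 and passed (adjusted p = 0.0172, beside 0.0172 to 0.651 over 14 alternatives), which is 0.18 above the shifted median. CLDN4 had 0.75 (adjusted p = 0.0888), CLDN8 0.19 (0.123) and CLDN3 0.00 (0.984), and 0 of the other 8 passed. Of 12 endothelial markers, 10 rose and 0 fell (83.3%, beside 16.7% of all genes). Endothelial markers summed to 680 to 1350 CPM in the cyclic libraries and 1032 to 1547 CPM in the pregnant ones. The endothelial sum was higher in pregnancy in 4 of 4 mares. It includes ROBO4, which was not called and had 786 CPM in the cyclic and 717 CPM in the pregnant library of mare 4. Stromal markers, of which 6 of 10 rose and 0 fell (60.0%), summed to 3308 to 4857 and 4115 to 4694 CPM. The stromal sum was higher in pregnancy in 2 mares and lower in 2. The collagen genes COL1A1 and COL1A2 were not called, with log2 fold changes of -0.15 and -0.17. Of the other marker lists, 1 of 6 ciliated cell, 3 of 10 T and NK cell, 1 of 8 macrophage and 1 of 3 B and plasma cell markers rose and 0 fell. The part of the changes of single endothelial and stromal markers in the values of the 9 genes was not tested.

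**Figure D3:**
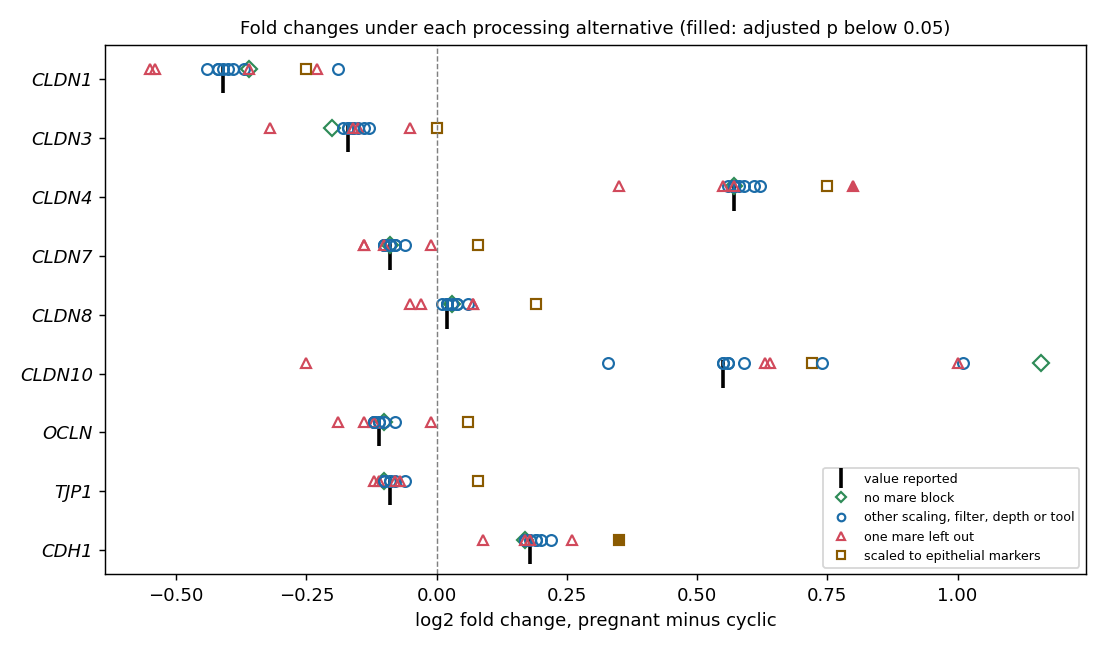
Log2 fold change (pregnant minus cyclic, x axis) of each gene as reported (black bar) and under 14 alternatives (symbols), filled where the adjusted p was below 0.05. The filled symbols are CLDN4 without mare 3 (0.80) and CDH1 scaled to epithelial markers (0.35); CLDN10 spans -0.25 to 1.16.

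A test of the mare terms in the same model asked whether the mares differed in these genes. It called 1 of 9, CLDN10 (adjusted p = 0.0247), against 15.9% of all genes tested. This call was lost without mare 1 (adjusted p = 0.0713), mare 2 (0.101) or mare 3 (0.467), and its adjusted p was 0.00661 without mare 4. CDH1 came next (adjusted p = 0.0548), and passed when no filter on low counts was used (0.0331; up to 0.143 over its alternatives). As a description of log2 CPM, the mare took 86.1% of the summed squared deviations of CLDN10, 71.3% of those of CDH1, 71.1% of those of CLDN8 and 70.2% of those of CLDN1, beside a median of 54.8% over all genes tested. The state took 44.1% for CLDN4, 39.3% for TJP1 and 0.450% for CLDN8, beside a median of 16%. OCLN was the member with the largest remainder, at 55.7%, beside a median of 17.0%.

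The members did not vary as a block across the 8 libraries, which come from 4 mares and so are not independent. Over the 36 pairs, Pearson correlations of log2 CPM ran from -0.89 (CLDN3 with CDH1) to 0.75 (CLDN3 with CLDN7), and CLDN4 with TJP1 had -0.84. In the values, CDH1 was highest in the cycle in mare 4, where CLDN3 was lowest, and CLDN3 was highest in mare 2. The genes whose pattern over the 8 libraries was most like that of a member, among genes with a symbol and a mean of at least 10 CPM, were KLF7 and FKBP9 for CLDN1 and ZMYND19 and RPS12 for CLDN3. They were KLC3 and CASTOR1 for CLDN4, GFER and TIMM13 for CLDN7, and HAUS2 and KCTD9 for CLDN8. For CLDN10 they were LIPE and BCAS1, for OCLN TMEM14A and SIPA1L3, for TJP1 LMLN and RNF43, and for CDH1 CX3CL1 and CERCAM. These correlations were 0.95 to 0.98, a size that the best of many genes can reach over 8 points.

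Other genes of the junctions were examined from lists made by function, with the counts of called genes set beside the share over all genes. The lists were chosen with earlier results of these data known, so their shares are a description and not a test. Of 18 other claudins, 16 had a Gene ID and 9 passed the filter, of which 1 rose (11.1%, beside 16.7% of all genes called) and 0 fell. The riser was CLDN5 (102149057), the claudin of endothelium, with 6.57, 4.78, 8.19 and 4.90 CPM in the cyclic libraries and 23.4, 14.9, 21.9 and 13.5 CPM in the pregnant ones. Its groups did not overlap, and its log2 fold change was 1.58 ± 0.11 (adjusted p = 1.58e-04), beside the rise of endothelial markers given above, to which CLDN5 and ESAM also belong. CLDN16, the neighbour of CLDN1 in the gene table, CLDN17 and CLDN25 had 0 counts in all 8 libraries, and CLDN14, CLDN19, CLDN20 and CLDN34 had at most 7 counts in any library. The list median was 0.11. Of 12 other membrane proteins of tight junctions, all tested, 2 rose and 1 fell (25.0%), with a list median of 0.08. The junctional adhesion molecule JAM2 rose from 11.5 ± 1.62 to 19.2 ± 2.74 CPM and the endothelial adhesion molecule ESAM rose from 15.3 ± 1.78 to 23.9 ± 2.49 CPM. MARVELD2, which encodes tricellulin, the protein that closes corners where 3 cells meet, fell from 108 ± 11.4 to 86.4 ± 13.3 CPM (log2 fold change -0.33 ± 0.08, adjusted p = 0.0166). MARVELD2 was lower in 4 of 4 mares, at 94.6, 103, 115 and 120 CPM in the cyclic libraries and 82.6, 74.5, 83.0 and 105 CPM in the pregnant ones. It lies next to OCLN in the gene table, and the difference between the changes of these genes was not tested. Its call held in 9 of 14 alternatives and was lost, among others, without the mare block (adjusted p = 0.197), without mare 2 (0.0551) and without mare 3 (0.0599).

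Scaffold and polarity proteins of the tight junction held falls and rises in equal number. Of 23 tested, 4 rose and 4 fell, 34.8% beside the 16.7% of all genes called, and the list median was -0.09. AMOT (100054069), angiomotin, which binds the PATJ polarity scaffold and YAP, had 566, 669, 496 and 695 CPM in the cyclic libraries and 321, 300, 309 and 375 CPM in the pregnant ones. Every pregnant library of AMOT was below every cyclic one, with a log2 fold change of -0.89 ± 0.09 (adjusted p = 5.94e-04), and the call held in all 14 alternatives. PRKCI, the atypical protein kinase C of the PAR polarity complex, fell from 37.2 ± 1.86 to 26.2 ± 1.24 CPM, also in all 14. MAGI3, a scaffold with PDZ domains, fell from 48.1 ± 5.57 to 33.8 ± 5.27 CPM. The AMOT relative AMOTL2 rose from 21.9 ± 2.43 to 32.8 ± 5.88 CPM. YBX3, a Y-box protein that binds ZO-1, rose from 69.5 ± 6.45 to 93.5 ± 11.2 CPM, and the paracingulin gene CGNL1 rose from 165 ± 25.3 to 208 ± 42.9 CPM. In the fit with no mare block, adjusted p was 0.0707 for MAGI3, 0.0642 for AMOTL2, 0.0680 for YBX3 and 0.313 for CGNL1, and the call of CGNL1 was also lost without mare 1 (0.0878).

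**Figure D4:**
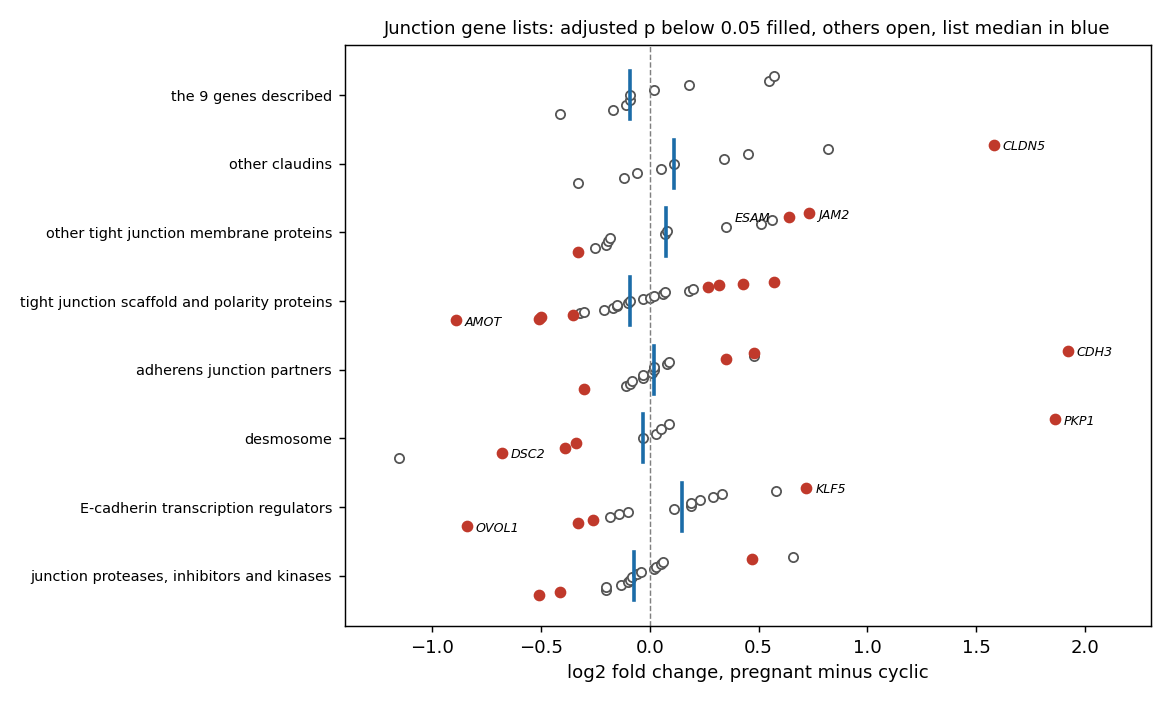
Log2 fold change (pregnant minus cyclic, x axis) of each tested gene in the 9 genes described and in 7 further lists of junction genes (rows; vertical offsets only separate points). Filled red points have an adjusted p below 0.05, and blue bars are list medians; the top row holds no filled point, while CDH3 (1.92), PKP1 (1.86) and CLDN5 (1.58) lie far to the right.

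Among adherens junction partners, 3 of 15 rose and 1 fell, 26.7% beside 16.7% of all genes, with a list median of 0.02. CDH3 (100066779), P-cadherin, which lies next to CDH1 in the gene table, had 0.580, 0.628, 0.807 and 0.991 CPM in the cyclic libraries and 2.59, 2.00, 4.05 and 2.96 CPM in the pregnant ones, on 9 to 72 counts. The groups of CDH3 did not overlap, its log2 fold change was 1.92 ± 0.25 (adjusted p = 0.00152), and the call held in all 14 alternatives. Whether CDH3 and CDH1 differ in their change was not tested. JUP, plakoglobin, which links cadherins to the cytoskeleton, rose from 437 ± 72.5 to 554 ± 34.2 CPM, NECTIN4, an adhesion molecule, rose from 10.2 ± 2.44 to 14.6 ± 5.00 CPM, and NECTIN1 fell from 133 ± 15.4 to 108 ± 6.67 CPM. Of 14 alternatives, the call of JUP held in 10, that of NECTIN4 in 8 and that of NECTIN1 in 8, and all were lost without the mare block (adjusted p 0.186, 0.340 and 0.138) and without mare 1 (0.114, 0.133 and 0.0748) or mare 2 (0.156, 0.162 and 0.107). NECTIN4 and NECTIN1 were also lost without mare 3 (0.144 and 0.115), and JUP without mare 4 (0.128).

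Desmosomes, the spot junctions anchored to keratin, held 3 falls and 1 rise, beside an epithelial marker sum that was also lower in 4 of 4 mares. These are 44.4% of the 9 tested, beside 16.7% of all genes, and the list median was -0.03. In the fit with no mare block 2 were called, DSC2 lower and PKP1 higher. DSC2 (100065829), desmocollin 2, had 133, 162, 116 and 162 CPM in the cyclic libraries and 85.5, 96.8, 76.7 and 97.6 CPM in the pregnant ones, without overlap, and a log2 fold change of -0.68 ± 0.06 (adjusted p = 4.09e-04). The cadherin DSG2 fell from 187 ± 16.4 to 143 ± 16 CPM and desmoplakin, DSP, fell from 538 ± 68.5 to 428 ± 78.7 CPM. PKP1, a plakophilin typical of stratified epithelium, rose from 3.70 ± 1.39 to 13.3 ± 3.23 CPM (log2 fold change 1.86 ± 0.30, adjusted p = 0.00889). The call of DSC2 held in all 14 alternatives. In the fit with no mare block, adjusted p was 0.0874 for DSG2 and 0.260 for DSP; DSP was also lost without mare 1 (0.0546) and mare 3 (0.0566), and PKP1 without mare 1 (0.0582).

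Of 14 tested transcription and splicing regulators known to act on E-cadherin or on epithelial identity, 1 rose and 3 fell, 28.6% beside 16.7% of all genes, with a list median of 0.15. KLF5 (100052058), a Krüppel-like factor of proliferating epithelium, had 158, 121, 181 and 148 CPM in the cyclic libraries and 274, 212, 280 and 234 CPM in the pregnant ones, without overlap (log2 fold change 0.72 ± 0.07, adjusted p = 5.16e-04, called in all 14 alternatives). OVOL1 fell from 4.61 ± 1.13 to 2.61 ± 0.877 CPM, the grainyhead factor GRHL1 from 40.9 ± 5.15 to 32.4 ± 2.76 CPM and the splicing regulator ESRP2 from 62.9 ± 8.99 to 52.5 ± 7.26 CPM. These falls held in 10, 6 and 7 of 14 alternatives. ESRP2 also belongs to the epithelial markers given above, so its fall is counted in both lists. All 3 were lost without the mare block (adjusted p 0.170, 0.156 and 0.325), without mare 1 (0.0916, 0.167 and 0.146) and without mare 2 (0.0514, 0.148 and 0.0750), OVOL1 also without mare 3 (0.104), and GRHL1 and ESRP2 without mare 4 (0.120 and 0.0869). The E-cadherin repressors SNAI1, SNAI2, ZEB1 and ZEB2, singled out after their values were seen, had log2 fold changes of 0.19, 0.58, 0.33 and 0.23 with adjusted p of 0.501, 0.0624, 0.0580 and 0.153, and 0 of 4 passed. Over 14 alternatives, SNAI1, SNAI2, ZEB1 and ZEB2 passed in 0, 4, 3 and 1.

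Of 16 proteases, inhibitors and kinases that act on junction proteins, all tested, 1 rose and 2 fell, which is 18.8%, close to the 16.7% of all genes, with a list median of -0.07. ADAM10, the metalloprotease that sheds E-cadherin, fell from 150 ± 40.1 to 111 ± 18.7 CPM (log2 fold change -0.41 ± 0.08, adjusted p = 0.00936). The myosin-activating kinase ROCK2 fell from 58.9 ± 9.32 to 41.7 ± 9.08 CPM, and the myosin light chain kinase MYLK, which smooth muscle also expresses, rose from 178 ± 33.3 to 249 ± 55.2 CPM beside a summed smooth muscle marker level of 168 to 340 CPM in the cyclic libraries and 327 to 551 CPM in the pregnant ones. Of the 8 smooth muscle markers, 3 rose and 0 fell (37.5%, beside 16.7% of all genes), and their part in the value of MYLK was not tested. In the fit with no mare block, adjusted p was 0.282 for ADAM10, 0.147 for ROCK2 and 0.204 for MYLK, and MYLK was also lost without mare 1 (0.0578). For each gene named above from these 7 lists whose call was lost in an alternative, the highest adjusted p was that without the mare block, except for PKP1 (without mare 1) and for NECTIN1 (0.234), GRHL1 (0.229) and ESRP2 (0.374), where it came from scaling to epithelial markers. ESRP2 is itself among the markers that set this scaling.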

How the data were processed

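Poly(A) RNA of 8 biopsies (2 states, 4 mares) was sequenced with a kit that, as described in the labels' protocols, does not mark strand. The authors deposited raw read counts per NCBI Gene ID; per the submitters' processing notes, Trimmomatic (0.32.2) and HISAT2 (2.0.3) were used, and no source used here names the counting tool, annotation or genome build. A second deposited table of scaled signal covers 14037 genes. Checked on the values, its signal equals TMM-scaled CPM for 100% of values within a relative tolerance of 1e-06; it served only to set a stricter filter. No column of sample values was left out (0 columns).

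RefSeq's table of horse genes (thoroughbred assembly) gave symbols for Gene IDs, with 85.9% of 24942 IDs matched. Its build may differ, so it gave only names and gene neighbours. Gene symbols without an ID were not used here.

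In R 4.3.3 with edgeR 4.0.16, genes passing filterByExpr (minimum count 10; 15342 genes) were scaled by TMM and tested by the robust quasi-likelihood F-test with mare and state as terms, adjusted by Benjamini-Hochberg over all genes; calls have an adjusted p below 0.05. The pairing comes from the design text. Deviations from the group mean correlated at 0.38 to 0.54 for the same mare and at -0.02 or less for different mares. Subtracting the group mean forces values of different mares below 0 on average when same-mare values are above 0. They are therefore no separate support for the pairing. The SE is the log2 fold change over the square root of F, and 95% intervals use the fit's degrees of freedom. Log2 CPM used a prior count of 2. Whether biopsies beyond the 4 mares would vary alike is not covered by these p-values. A count of 0 allows up to 3 counts, at most 0.306 CPM; such limits cover counting error only, since reads carry no molecular identifiers.

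Alternatives were the model without the mare block, other scalings (relative log expression, library totals, upper quartile, epithelial markers), other filters, thinning, DESeq2 1.42.0, limma-voom (limma 3.58.1) and leaving out each mare. The fit was tested on simulated data. Named were all 9 genes; per further list up to 6 called genes by p; and the genes most alike in pattern. The 9 genes, the lists and the rules were chosen with earlier results of these data known.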

Additional observations from a re-analysis of the deposited data

Results flagged for a closer look

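A library was set apart when its gap to the nearest of the other 3 in its group passed Dixon's critical value at the 95% level, which chance passes in about 1 of 20 groups; 68 groups (34 genes in 2 states) were examined and 3 were marked. CLDN10 had 17.2 CPM in the pregnant library of mare 3, against 0.83 to 1.79 CPM in the other pregnant libraries. TJP1 had 124 CPM in the pregnant library of mare 2, just below the 130 to 132 CPM of the others. PRKCI had 34.5 CPM in the cyclic library of mare 3, against 38.1 to 38.4 CPM in the others.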

How the results depend on the processing

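The libraries hold 4 mares, and depth limits chiefly CLDN1 and CLDN10, on as few as 11 and 14 counts. Over 14 alternatives, 7 of the 9 genes were called in none. The exceptions were CLDN4 without mare 3 (log2 fold change 0.80) and CDH1 scaled to epithelial markers (0.35), each making 1 of 9 called in that setting. In these settings 1863 and 4256 of the 15342 genes tested were called. Directions turned for CLDN8 without mares 3 and 4 (-0.05 and -0.03; -0.05 to 0.07 over the mares left out), for CLDN10 without mare 3 (-0.25), and, when scaled to epithelial markers, for CLDN3 (0.00), CLDN7 (0.08), OCLN (0.06) and TJP1 (0.08); the cause was not tested beyond the shift of all genes by 0.18 under that scaling. The number of all genes changed, 2565, was 389 (268 higher, 121 lower) without the replicate block of mares and 4256 (3665 higher, 591 lower) when scaled to epithelial markers. Leaving out a mare gave 1266 to 2057 genes changed, 653 to 1050 higher and 613 to 1007 lower, on fewer samples. Without the block the number changed was 2 of the scaffold and polarity, 1 of the adherens, 2 of the desmosome, 1 of the regulator and 0 of the protease and kinase lists. Leaving out a mare gave 1 to 2 other claudins, 5 to 8 scaffold and polarity genes, 1 to 3 adherens partners, 2 to 4 desmosome genes and 1 to 3 regulators, and 0 to 1 of the 9. Differences between mares were called for 1103 to 2049 genes and 0 to 1 of the 9 when a mare was left out, against 2435 and 1 with all, and for 2 of the 9 with no filter on low counts.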

Other observations

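DSC3, a desmocollin of desmosomes chosen here after its values were seen, had 51.5, 59.1, 57.9 and 67.2 CPM in the cyclic libraries and 32.0, 28.4, 13.1 and 39.4 CPM in the pregnant ones, in mares 1 to 4. The groups of DSC3 did not overlap and it was lower in 4 of 4 mares, yet its log2 fold change of -1.15 ± 0.28 missed the threshold (adjusted p = 0.0710). The endothelial marker ROBO4 had 12689 counts in the cyclic and 12117 in the pregnant library of mare 4, against 2830 to 4329 counts in the libraries of the other mares.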
